A study of Mus musculus with 8 samples.

Results

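The genes described here are 10 that carry the alarmin output of intestinal tuft cells and their reading of type 2 cytokines. They were listed by name: the cytokine genes Il25 and Tslp, the receptor chains Il17rb, Il17ra, Il4ra, Il13ra1 and Il2rg, the signalling genes Jak1 and Stat6, and the ubiquitin-editing enzyme gene Tnfaip3. All 10 were found among the 53655 gene symbols measured. Mice were naïve, carried 1 reporter allele of Il25 (Il25-RFP/+) and a Chat-GFP transgene (Tg+), and gave small intestinal epithelium that was sorted as CD45- EPCAM+ Il25-RFP+. Both groups shared that genotype and that gate, and they differed in the green reporter: 4 libraries held cells without it (Chat-neg) and 4 held cells with it (Chat-pos). Age, strain and the animal behind each library were not given in the sources used here, so the spread between libraries may in part be technical.

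Tuft cells, a scarce chemosensory type of the gut lining, link luminal signals to immunity. They release IL-25, an alarmin that acts on group 2 innate lymphoid cells through a receptor built from the IL-17RB and IL-17RA chains. TSLP is a second epithelial alarmin of type 2 immunity. The lymphoid cells answer with IL-13, which the epithelium reads through IL-4Rα paired with IL-13Rα1 (the type II receptor), while IL-4Rα paired with the common gamma chain encoded by Il2rg forms the type I receptor. Both receptors signal through JAK kinases to STAT6, and in the gut this circuit expands the tuft cell lineage. TNFAIP3, also called A20, restrains NF-κB signalling.

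Of the 10 members, 4 rose in Chat-pos: Il25, Tslp, Il17rb and Tnfaip3. None fell by the edgeR quasi-likelihood test (threshold 0.05 after Benjamini-Hochberg adjustment over all 8919 genes tested), 5 did not pass and Il2rg had too few counts to be tested. Over all genes tested, 4.03% rose and 2.67% fell. At an unadjusted p under 0.05, 4 members were higher and 1 lower, Il17ra, against 1036 higher and 810 lower over all genes tested. DESeq2 and limma-voom each called 3 members higher, without Tnfaip3 (adjusted p = 0.0875 and 0.0647), and 0 lower. Values below are CPM, that is counts per 1000000 TMM-scaled counts in named genes, and are means ± SD over 4 libraries unless a library is named.

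RefSeq (GRCm38.p6) gave the start region of 7 of the 10 members, in 8 entries. Il25, Tslp and Il17ra were not among them. Regions are shown for Il17rb and Tnfaip3, since both genes rose, each as the stretch directly before its RefSeq start that lies in no annotated exon. GENCODE, which gives the gene positions below, places the outer end of Tnfaip3 further upstream (19015657) than this RefSeq start (19015410), so the Tnfaip3 stretch lies inside the GENCODE gene. Each reads 5′ to 3′ on the minus strand. Capitals mark a match to a κB-type motif.

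Il17rb, chr14:30008897-30009022: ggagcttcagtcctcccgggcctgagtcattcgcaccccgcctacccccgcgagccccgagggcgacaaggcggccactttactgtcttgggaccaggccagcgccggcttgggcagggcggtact
Tnfaip3, chr10:19015411-19015547: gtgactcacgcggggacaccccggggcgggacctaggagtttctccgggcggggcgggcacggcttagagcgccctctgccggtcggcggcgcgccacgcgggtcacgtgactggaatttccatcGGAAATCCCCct

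The κB-type motif was searched as GGG, any 2 bases and TTTCC, on both strands in the 250 bases before each start, and its match before Tnfaip3, GGAAATCCCC, lay 12 to 3 bases before the RefSeq start. Of 32851 such windows across the genome 1.41% held this motif. A STAT6-type motif, TTC and GAA with any 4 bases between them, present in 5.85% of windows, also matched once, 242 to 233 bases before this RefSeq start of Tnfaip3 and likewise inside the GENCODE gene. The octamer ATGCAAAT bound by POU-family factors, in 1.6% of windows, matched 139 to 132 bases before the RefSeq start of Il4ra (125552271), in bases that GENCODE counts as exon of the gene. A shorter STAT motif, TTCNNNGAA, in 7.02% of windows, matched in 0 of the 8 entries. The windows of Il17rb, Il13ra1, Il2rg, Jak1 and Stat6 and the second start of Tnfaip3 held none of the 4 motifs. The first base printed for Il17rb, at the outer end of its stretch, borders the start of the divergent gene Chdh, for choline dehydrogenase. Chdh also rose (50.4 ± 4.64 against 29.9 ± 11.3 CPM, n = 4 each, edgeR adjusted p = 0.0386). It was looked up after the values of Il17rb were seen.

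Counts in named genes ran from 87642 to 1176880 in Chat-neg and from 1757401 to 2541955 in Chat-pos, so Chat-neg libraries were the shallower, and Chat-neg replicate 1 was the shallowest. The share of all counts on entries with no gene name, left out here, was 67.8% to 88.4% in Chat-neg and 58.6% to 64.6% in Chat-pos, also without overlap, and its part in the results was not tested. Chat itself was 2.87-fold higher in Chat-pos (322 ± 33.9 against 112 ± 21.3 CPM, n = 4 each, edgeR adjusted p = 5.47e-05). Ptprc, which encodes the CD45 that the sort gated against, was detected in both groups and was higher in Chat-pos (546 ± 82.6 against 267 ± 26.5 CPM, n = 4 each, edgeR adjusted p = 0.00279). All 15 tuft cell markers were detected, and Gnb3 was at 0 in 7 libraries. Their summed level was 13161 to 22623 CPM in Chat-neg and 28626 to 31027 CPM in Chat-pos. In bulk libraries a smaller number of tuft cells and less tuft RNA per cell cannot be told apart. T cell markers summed to 176 to 355 CPM in Chat-neg, while Chat-pos replicates 1 to 4 gave 6.04, 294, 10.2 and 6.17 CPM. For Paneth cell markers the sums were 57243 CPM for Chat-pos replicate 2, 31002 CPM for Chat-pos replicate 3 and at most 3362 CPM in the other libraries.

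Il25 encodes the alarmin whose reporter defined both gates. It stood at 11.1, 53.5, 75.2 and 35.8 CPM in Chat-neg replicates 1 to 4 and at 139, 127, 104 and 92.1 CPM in Chat-pos replicates 1 to 4. No Chat-pos library lay as low as any Chat-neg library, a separation that 9.19% of all genes tested showed in this direction. Every library of both gates held Il25 reads. The lowest value rested on 1 count, for which an exact Poisson interval (95%, counting error only) ran from 0.281 to 61.8 CPM. The log2 difference was 1.15 ± 0.26 (SE; edgeR adjusted p = 0.00772), and without that library it was 1.06. Il25 lies on the plus strand of chromosome 14 (54932695 to 54935837, GRCm38) and shares no exon with another annotated gene.

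Tslp, the other alarmin gene, stood at 22.2, 96, 102 and 107 CPM in Chat-neg replicates 1 to 4 and at 258, 172, 156 and 250 CPM in Chat-pos replicates 1 to 4. All Chat-pos libraries lay above all Chat-neg libraries, and 3 of the Chat-neg libraries agreed closely while replicate 1, with 2 counts, lay apart. The log2 difference was 1.18 ± 0.25 (edgeR adjusted p = 0.00495). Tslp was the member whose call held in each of the 21 alternative fits, with adjusted p from 0.000376 to 0.0437. The gene lies on chromosome 18 (32815383 to 32819797, plus strand). Crlf2, which encodes the TSLP receptor's own chain, had at most 4 counts in any library and was not tested.

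Il17rb encodes the chain that binds IL-25. It stood at 322, 311, 401 and 305 CPM in Chat-neg replicates 1 to 4 and at 626, 709, 699 and 631 CPM in Chat-pos replicates 1 to 4. The 2 groups were tight and far apart, a 1.99-fold difference of the means (log2 difference 0.99 ± 0.20, edgeR adjusted p = 0.00308). Il17rb lies on the minus strand of chromosome 14 (29996135 to 30008896), and 141 of its 3707 exon bases are shared with Actr8 on the other strand. The kit does not mark strand, so reads in those bases cannot be assigned to 1 gene.

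Il17ra encodes the shared signalling chain of the IL-25 and IL-17A receptors. It stood at 44.4, 25.5, 33.9 and 34.2 CPM in Chat-neg replicates 1 to 4 and at 11.5, 20.1, 23.5 and 24.3 CPM in Chat-pos replicates 1 to 4. Every Chat-pos library lay below every Chat-neg library, which held for 4.99% of all genes tested. The log2 difference of -0.69 ± 0.32 did not pass (edgeR adjusted p = 0.219). Chat-neg replicate 1 rested on 4 counts. Reads on 1461 olfactory and vomeronasal receptor genes, taken as silent in these cells, put the background over the length of Il17ra at 0.598 to 6.46 CPM in Chat-neg and 0.257 to 0.492 CPM in Chat-pos. With that background subtracted the difference was -0.66. Il17ra lies on chromosome 6 (120463247 to 120487559, plus strand).

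**Figure D1:**
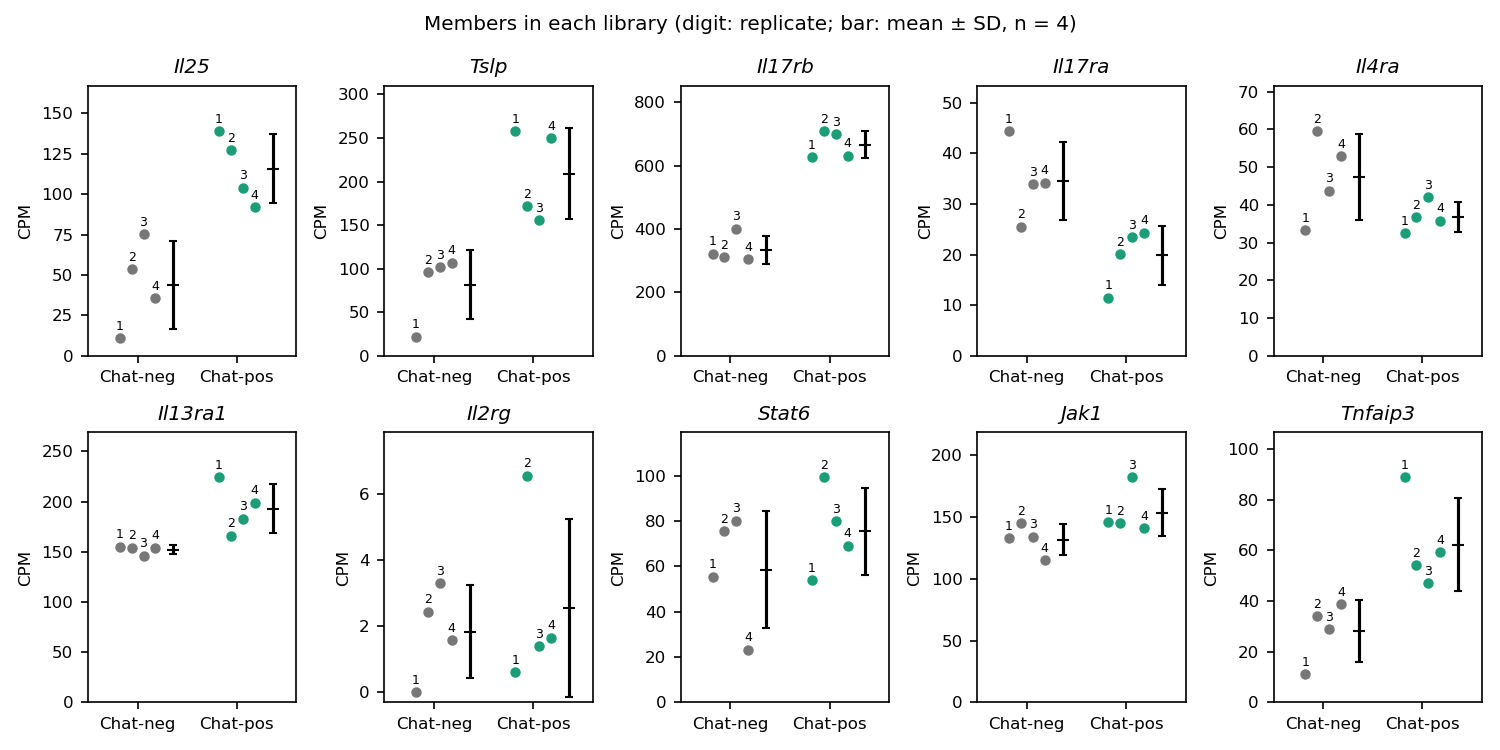
CPM of the 10 members in each library, with Chat-neg in grey and Chat-pos in green, the replicate number above each point, and the mean ± SD of 4 libraries as a bar. Il25, Tslp, Il17rb, Il13ra1 and Tnfaip3 are higher in all Chat-pos libraries than in any Chat-neg library and Il17ra is lower in all, while the groups overlap for Il4ra, Il2rg, Stat6 and Jak1. Of all genes tested, 9.19% are higher and 4.99% lower without overlap.

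The 2 chains of the IL-25 receptor thus had differences of opposite sign, and their ratio within a library needs no scaling between libraries. In Chat-neg replicates 1 to 4 Il17rb had 7.25, 12.2, 11.8 and 8.91 counts for each Il17ra count. In Chat-pos replicates 1 to 4 it had 54.5, 35.3, 29.7 and 26. The ratio was higher in all Chat-pos libraries, by 1.87 on the log2 scale (5.11 ± 0.45 against 3.24 ± 0.41 with 0.5 added to each count, n = 4 each), a 3.64-fold difference. The exact two-sided permutation p was 0.0286, the smallest that 4 against 4 libraries allow, and the adjusted p over the 4 ratios computed was 0.114. Every Chat-pos library was already above Chat-neg for Il17rb and below it for Il17ra. The separation of the ratio and its unadjusted p follow from that and add no support. With any 1 library left out the difference stayed between 1.66 and 2.00. The ratio of Il25 to Tslp was 0.333 to 0.74 in Chat-neg and 0.369 to 0.738 in Chat-pos, and its log2 difference was 0.06 (exact permutation, adjusted p = 0.886). The ratio of Il25 to Il17rb, ligand against its receptor chain, differed by 0.53 (exact permutation, adjusted p = 0.457), and by 0.12 without Chat-neg replicate 1.

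**Figure D2:**
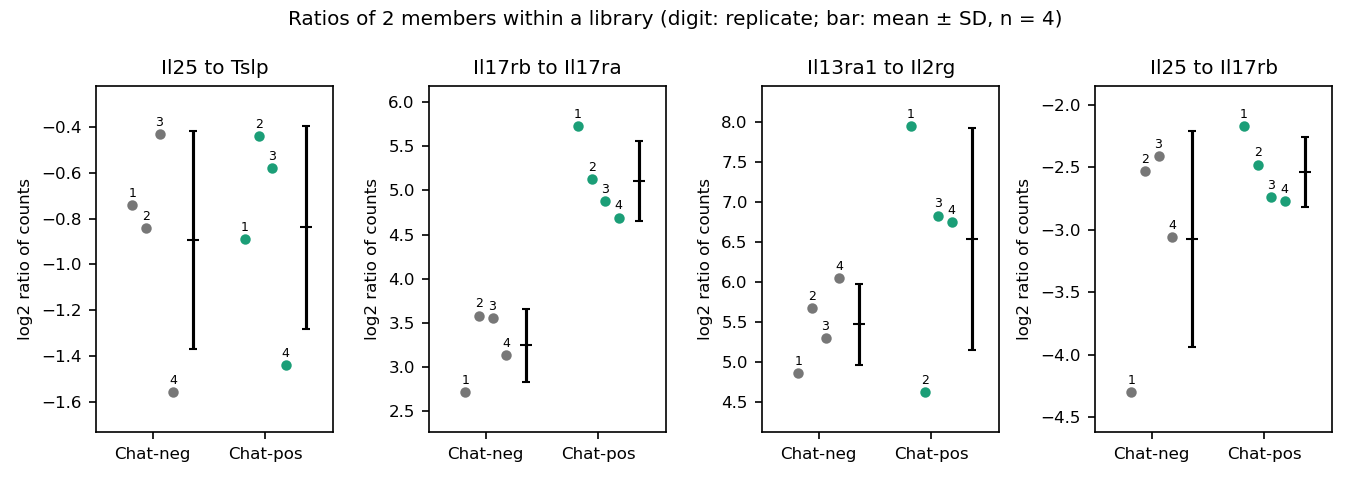
log2 ratio of the counts of 2 members in each library (0.5 added to each count), Chat-neg in grey and Chat-pos in green, with the replicate number above each point and the mean ± SD of 4 libraries as a bar. The groups are separate for Il17rb to Il17ra, at 2.71 to 3.58 in Chat-neg and 4.69 to 5.73 in Chat-pos, and overlap for the other 3 ratios.

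The receptor chains for IL-4 and IL-13 did not pass the test. Il4ra, the chain common to both receptor types, stood at 33.3, 59.6, 43.8 and 52.9 CPM in Chat-neg replicates 1 to 4 and at 32.6, 36.7, 42 and 35.8 CPM in Chat-pos replicates 1 to 4. The groups overlapped, with a log2 difference of -0.44 ± 0.25 (edgeR adjusted p = 0.321). Il4ra lies on chromosome 7 (125552120 to 125579474, plus strand), and 571 of its 6002 exon bases are shared with Gm44876 on the other strand.

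Il13ra1, its partner in the type II receptor, stood at 155, 154, 146 and 154 CPM in Chat-neg replicates 1 to 4. In Chat-pos replicates 1 to 4 it stood at 224, 166, 183 and 199 CPM. Chat-neg libraries were nearly level and all lay below the Chat-pos libraries, as 9.19% of all genes tested did, yet the log2 difference of 0.34 ± 0.20 did not pass (edgeR adjusted p = 0.328). Counting error was wide in the 14 counts of Chat-neg replicate 1. Il13ra1 lies on the X chromosome (36112110 to 36171259, plus strand).

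Il2rg, the common gamma chain of the type I receptor, was near the limit of detection. Chat-neg replicates 1 to 4 gave 0, 2, 4 and 1 Il2rg counts, and Chat-pos replicates 1 to 4 gave 1, 15, 3 and 4. The 0 in Chat-neg replicate 1 allows up to 33.3 CPM at a limit of 3 counts. The highest level, 6.55 CPM, was in Chat-pos replicate 2, the one Chat-pos library with T cell markers at 294 CPM, and in the other Chat-pos libraries Il2rg was at 0.604 to 1.64 CPM. Chat-neg replicates 1 to 4 had T cell markers at 233, 289, 355 and 176 CPM, with Il2rg at 0, 2.43, 3.3 and 1.56 CPM. The part of T cells in the Il2rg reads was not tested. In the 2 fits that could take the gene, its log2 difference was 0.28 ± 1.01 (edgeR without a filter on low counts, adjusted p = 0.882) and 0.13 ± 1.26 (DESeq2, adjusted p = 0.978). Il2rg shares 728 of its 2387 exon bases with Gm20489, and it lies on the X chromosome (101264378 to 101268255, minus strand). For each Il2rg count there were 44.2 to 99 Il13ra1 counts in the Chat-neg libraries with any Il2rg count and 25.4 to 371 in Chat-pos. That ratio differed by 1.07 on the log2 scale (exact permutation, adjusted p = 0.4).

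Jak1 encodes the kinase that associates with IL-4Rα. It stood at 133, 145, 134 and 115 CPM in Chat-neg replicates 1 to 4 and at 146, 145, 182 and 141 CPM in Chat-pos replicates 1 to 4, and the groups overlapped (log2 difference 0.22 ± 0.20, edgeR adjusted p = 0.579). Stat6, the transcription factor downstream, was low in 1 Chat-neg library. It stood at 55.4, 75.4, 80.1 and 23.3 CPM in Chat-neg replicates 1 to 4 and at 53.8, 99.2, 79.9 and 69.1 CPM in Chat-pos replicates 1 to 4. Its log2 difference of 0.32 ± 0.30 did not pass (edgeR adjusted p = 0.6), and without Chat-neg replicate 4, the low library, it was 0.09. Jak1 lies on chromosome 4 (101152367 to 101265282, minus strand) and Stat6 on chromosome 10 (127642986 to 127660957, plus strand). They share 4 and 40 exon bases with Raver2 and Nab2.

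Tnfaip3 stood at 11.1, 34, 28.9 and 38.9 CPM in Chat-neg replicates 1 to 4 and at 88.8, 54.2, 47.1 and 59.2 CPM in Chat-pos replicates 1 to 4. Libraries of the 2 gates were fully separate (log2 difference 0.96 ± 0.28, edgeR adjusted p = 0.0328). This was the least secure of the 4 calls. Leaving out any 1 of Chat-neg replicates 2 and 3 and Chat-pos replicates 1 and 4 ended it (adjusted p up to 0.111). So did DESeq2 (adjusted p = 0.0875), limma-voom (adjusted p = 0.0647) and total count scaling. The difference stayed between 0.74 and 1.15 with any 1 library left out. The calls of Il25, Tslp and Il17rb held in all 8 such fits. Tnfaip3 lies on chromosome 10 (19000910 to 19015657, minus strand).

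Levels of different genes were compared as CPM per kb of exon. In Chat-neg the order was Il17rb (90.2 ± 12), Tslp (61.4 ± 30.1), Il25 (41.2 ± 25.5), Il13ra1 (41.1 ± 1.13), Jak1 (18.2 ± 1.7), Stat6 (13.3 ± 5.86), Il4ra (7.89 ± 1.9), Il17ra (3.98 ± 0.889), Tnfaip3 (3.91 ± 1.68) and Il2rg (0.764 ± 0.59). In Chat-pos it was Il17rb (180 ± 11.9), Tslp (157 ± 39.4), Il25 (109 ± 19.9), Il13ra1 (52 ± 6.59), Jak1 (21.2 ± 2.67), Stat6 (17.1 ± 4.34), Tnfaip3 (8.62 ± 2.54), Il4ra (6.13 ± 0.65), Il17ra (2.29 ± 0.677) and Il2rg (1.07 ± 1.13). Il17rb and Tslp had the highest means in both gates, and Il2rg the lowest. Il25 was level with Il13ra1 in Chat-neg, above it in 2 of 4 libraries, and above it in all 4 in Chat-pos. In Chat-pos the neighbours whose libraries did not overlap were Il25 and Il13ra1, Il13ra1 and Jak1, and Il4ra and Il17ra. In Chat-neg they were Il17rb and Tslp, Il13ra1 and Jak1, Il4ra and Il17ra, and Tnfaip3 and Il2rg.

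The summed tuft markers were themselves higher in Chat-pos, so the members were also fitted with the libraries scaled to those markers, or to 8 epithelial markers (Epcam, keratins and others). The former moved the median of all genes to -0.56 on the log2 scale and the latter to -0.32. Per tuft marker count, Tslp was still higher in Chat-pos (log2 difference 0.60 ± 0.22, edgeR adjusted p = 0.0437), while Il25 at 0.61 ± 0.25 (edgeR adjusted p = 0.0707), Il17rb at 0.35 ± 0.17 (edgeR adjusted p = 0.122) and Tnfaip3 at 0.39 ± 0.28 (edgeR adjusted p = 0.294) no longer passed. On that scale Il17ra fell by 1.24 (SE 0.35, edgeR adjusted p = 0.0131) and Il4ra by 1.01 (SE 0.26, edgeR adjusted p = 0.00755). The same fit called 2060 of all 8919 genes tested lower and 77 higher, so these 2 falls are not particular to the members. Il13ra1, Stat6 and Jak1 changed sign on both scales without passing. Per epithelial marker count, Il25 (0.82 ± 0.26, edgeR adjusted p = 0.0421), Tslp (0.83 ± 0.21, edgeR adjusted p = 0.0123) and Il17rb (0.58 ± 0.17, edgeR adjusted p = 0.032) passed. Tnfaip3 (0.63 ± 0.27, edgeR adjusted p = 0.148) did not pass there. That fit called 136 of all genes tested higher and 720 lower. Subtracting the shifted median of all genes largely undoes the scaling, so the differences then lie near those with TMM scaling by construction. With tuft marker scaling they were 1.16 for Il25 and Tslp, 0.90 for Il17rb, -0.69 for Il17ra and -0.45 for Il4ra. These values cannot show whether a difference holds per tuft marker count. Of the 14 tuft markers tested, 4 rose, Sh2d6 and Rgs13 among them, with a median log2 difference of 0.49.

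**Figure D3:**
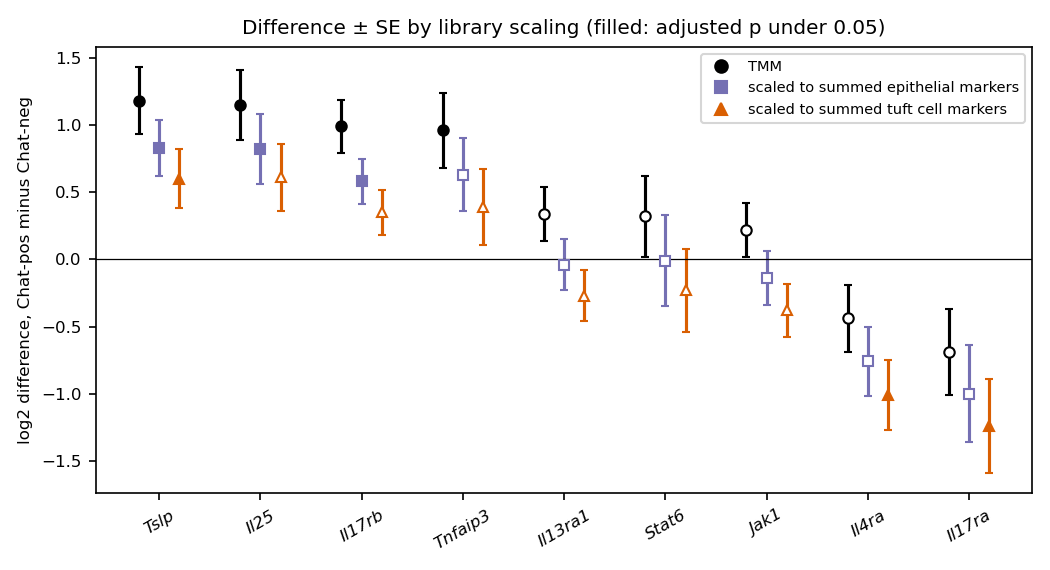
log2 difference between Chat-pos and Chat-neg ± SE for the 9 members tested, with TMM scaling (circles) and with the libraries scaled to summed epithelial markers (squares) or summed tuft cell markers (triangles); filled symbols have an adjusted p under 0.05. All members shift down together, so that Tslp is filled under all 3 scalings and Il17ra and Il4ra are filled only with tuft marker scaling. That scaling called 2060 of all 8919 genes tested lower.

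The rest of the pathway was followed in 9 further lists with 100 genes in all, of which 55 could be tested. Of these, 3 rose, Nfkbia, Birc3 and Chuk, and 1 fell, Clca1, against 4.03% higher and 2.67% lower over all genes tested, so these counts are near the background. The median log2 difference was 0.06, against 0.01 over all genes tested. At an unadjusted p under 0.05, 8 were higher and 4 lower, against 1036 higher and 810 lower of all 8919 genes tested.

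The 3 genes that rose came from the 2 lists of NF-κB genes, which hold 15 and 14 of the 55 tested. Nfkbia, the inhibitor IκBα and a known NF-κB target, stood at 255, 402, 444 and 443 CPM in Chat-neg replicates 1 to 4 and at 844, 1016, 735 and 819 CPM in Chat-pos replicates 1 to 4 (log2 difference 1.12 ± 0.21, edgeR adjusted p = 0.00171). Its call held in all 8 fits that left out a library and with tuft marker scaling (0.49 ± 0.15, edgeR adjusted p = 0.0225). Birc3, an inhibitor of apoptosis and ubiquitin ligase, stood at 10.9 to 15.8 CPM in Chat-neg and 25.4 to 44 CPM in Chat-pos (1.31 ± 0.33, edgeR adjusted p = 0.0142). Its call was lost without Chat-pos replicate 4 (adjusted p = 0.0555) and with tuft marker scaling (edgeR adjusted p = 0.105). With Nfkbia it made up the 2 of 14 tested NF-κB inhibitors and ubiquitin editors that rose, and that list had a median of 0.10. Tax1bp1, an A20 partner and the most abundant gene of that list over both groups, differed by 0.23 ± 0.21 (edgeR adjusted p = 0.594). Tnip1, another A20 partner, averaged 25.8 CPM with the green reporter and 24.8 CPM without it.

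Among the IL-17 receptor adaptors and NF-κB core genes 1 of 15 rose, Chuk, which encodes the kinase IKKα (161 ± 34.1 against 87.3 ± 26.8 CPM, n = 4 each, 0.79 ± 0.22, edgeR adjusted p = 0.0269). The call ended when replicate 2 of either gate or replicate 3 of Chat-pos was left out, and with tuft marker scaling (edgeR adjusted p = 0.408). Ikbkb, its partner kinase, averaged 65.9 ± 18.8 (Chat-pos) and 66.3 ± 12.8 CPM (Chat-neg). Traf3ip2, which encodes the IL-17 receptor adaptor Act1, averaged 11 CPM (Chat-pos) and 10.9 CPM (Chat-neg). The NF-κB subunit genes Rela (-0.00 ± 0.41), Nfkb1 (-0.08 ± 0.38) and Nfkb2 (0.75 ± 0.38) did not pass.

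Of the other JAK and STAT genes 0 of 5 passed with edgeR, DESeq2 or limma-voom, and 1 was higher at an unadjusted p under 0.05, Jak2 (111 ± 8.42 against 64.2 ± 31.2 CPM, n = 4 each, edgeR adjusted p = 0.119). Stat2 differed by 0.43 ± 0.23 and Stat3 by -0.37 ± 0.26. The JAK-STAT negative regulators had a median of 0.30, and 0 of 12 passed with edgeR, against 2 higher and 3 lower at an unadjusted p under 0.05, 1 higher by DESeq2, and 1 higher and 1 lower by limma-voom. Their most abundant member was Ptpn6, the phosphatase SHP-1, at 1530 ± 110 against 972 ± 208 CPM (0.64 ± 0.21, edgeR adjusted p = 0.0619). DESeq2 called it higher (adjusted p = 0.0018), and its difference was 0.00 ± 0.13 with tuft marker scaling. Socs4, next in abundance, averaged 62.5 ± 5.86 (Chat-pos) and 53.5 ± 11.9 CPM (Chat-neg) and differed by 0.30 ± 0.24 (edgeR adjusted p = 0.521). Socs1, a feedback inhibitor of JAK1, differed by 0.73 ± 0.49 (edgeR adjusted p = 0.426) and Socs2 by -0.62 ± 0.28 (edgeR adjusted p = 0.2). Cish, a STAT target, had 2 to 5 counts in every library, and was not tested. Scaled for the unlike depths, these few counts gave 3.65 to 33.3 CPM in Chat-neg and 1.21 to 2.18 CPM in Chat-pos. That is lower without overlap, as 4.99% of all genes tested were.

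**Figure D4:**
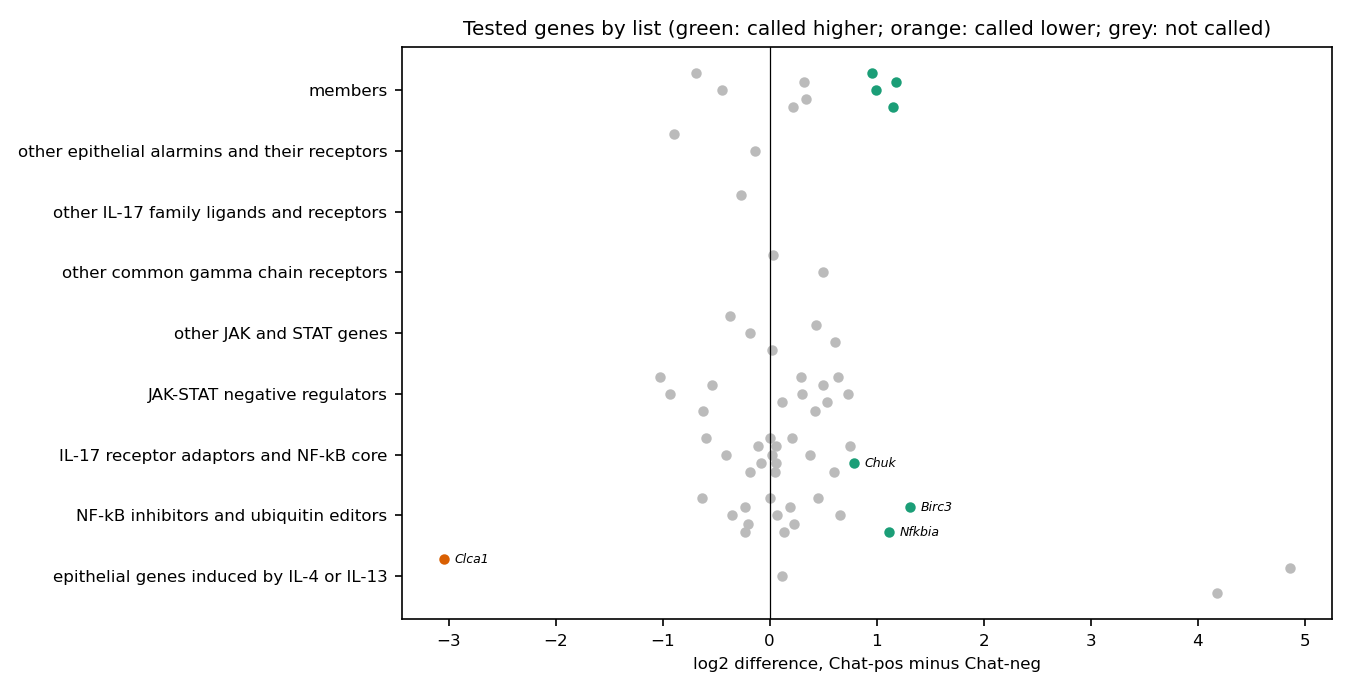
log2 difference between Chat-pos and Chat-neg for each tested gene of the pathway lists, 1 row per list, with genes called higher in green, lower in orange and others in grey. The called genes outside the members are Chuk, Nfkbia and Birc3 to the right of 0 and Clca1 to the left; Ang4 and Itln1, at 4.86 and 4.18, did not pass with edgeR.

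Other ligands and receptors of these families were scarce. Of the 16 other alarmin and receptor genes, Il18 and Hmgb1 could be tested and neither passed with edgeR, DESeq2 or limma-voom, or at an unadjusted p under 0.05. Hmgb1 averaged 92.1 ± 9.41 (Chat-pos) and 105 ± 18 CPM (Chat-neg). Il33, the third classical alarmin, had 2 to 20 counts in Chat-pos and at most 9 in the shallower Chat-neg libraries, and was not tested. Scaled for depth it averaged 3.29 ± 3.98 (Chat-pos) and 4.63 ± 3.26 CPM (Chat-neg), and the groups overlapped. Of the other IL-17 family genes Il17rc alone was tested (13.5 ± 1.84 against 17.3 ± 4.03 CPM, n = 4 each, edgeR adjusted p = 0.764). Il17a had 4 counts and Il9 2 counts, all in Chat-neg replicate 1. The type 2 cytokines Il4, Il5 and Il13 had at most 2 counts in any library, and Il13 and the decoy receptor gene Il13ra2 had 0 in all 8. Of the ILC2 markers, Klrg1 and Il13 were at 0 in all libraries, and the list summed to 12.4 to 77.6 CPM in Chat-neg and 4.15 to 30.6 CPM in Chat-pos. Among the other receptors that use the common gamma chain, Il9r (24 ± 5.02 against 13.5 ± 9.17 CPM) and Il15ra (20.6 ± 9.28 against 18.1 ± 6.75 CPM) were tested and neither passed with any of the 3 tools, or at an unadjusted p under 0.05.

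Genes that IL-4 or IL-13 induce in epithelium gave 1 call of 4 tested. Clca1, a goblet cell product, stood at 33.3, 46.2, 122 and 31.1 CPM in Chat-neg replicates 1 to 4 and at 10.3, 10.5, 1.85 and 9.04 CPM in Chat-pos replicates 1 to 4 (log2 difference -3.04 ± 0.55, edgeR adjusted p = 0.00918). Goblet cell markers, a list that includes Clca1, summed to 488 to 5287 CPM in Chat-neg and 299 to 1531 CPM in Chat-pos. Their part in the result was not tested. Ang4 (2370 and 1532 CPM) and Itln1 (3715 and 3020 CPM) were high in Chat-pos replicates 2 and 3, the libraries rich in Paneth cell transcripts. In the other libraries they were at 11.1 to 53.5 and at 33.3 to 201 CPM. Neither passed with edgeR (adjusted p = 0.191 for Ang4 and 0.231 for Itln1) or limma-voom, while DESeq2 called both higher. Sprr2a3 differed by 0.12 ± 0.97. Retnlb, a hallmark of the IL-13 response, had 1 count in all 8 libraries together.

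With Chat-pos replicates 2 and 3 left out, a choice made after seeing the data, 2 members rose, Tslp (1.48, edgeR adjusted p = 0.00549) and Tnfaip3 (1.22, edgeR adjusted p = 0.0429). Il25 (1.16, edgeR adjusted p = 0.0579) and Il17rb (0.92, edgeR adjusted p = 0.0614) then just missed the threshold at differences close to those over all libraries. Of the other pathway genes 1 rose in that fit.

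The genes with the most similar pattern were found by the root mean square difference between log2 CPM profiles, each centred on its mean over the 8 libraries, among the 7605 genes that averaged 10 CPM or more. Closest to Il17rb were Pde9a, a cyclic GMP phosphodiesterase (0.11), Dmxl2 (0.12) and the zinc transporter gene Slc30a7 (0.13), against a median of 0.69 over all genes. Pde9a averaged 309 ± 29 CPM (Chat-pos) and 149 ± 31.8 CPM (Chat-neg). Closest to Tslp were the stress-response gene Gadd45g (0.18), Cd38 (0.25) and Pmvk (0.26). Gadd45g averaged 285 ± 43.6 and 117 ± 56.8 CPM in the same order. Closest to Il25 were Odf3b (0.21), Arl14 (0.25) and Scyl3 (0.27). Both alarmin profiles were low in Chat-neg replicate 1, and so were those of Odf3b (11.1 CPM), Arl14 (22.2 CPM) and Gadd45g (33.3 CPM). In that shallowest library these levels stand for 1, 2 and 3 counts. The part of counting error in the likeness to Il25 and Tslp was not tested.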

How the data were processed

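The authors deposited raw counts per gene symbol in 1 table. Cells were sorted into SMARTer v4 reagents and libraries made with Nextera XT, per the labels' protocols, and GRCm38 is the build that the submitters' processing notes name. For the aligner and the counter no name is given in the sources used here. The kit gives no molecular identifiers, so intervals cover counting error only. The 36 rows with no gene name held 67.8% to 88.4% of counts in Chat-neg and 58.6% to 64.6% in Chat-pos and were left out, and 229 rows with a symbol in common with another were added together. Counts were tested with edgeR 4.0.16 (R 4.3.3): TMM, filterByExpr, a robust quasi-likelihood fit on group alone, Benjamini-Hochberg adjustment over all genes, threshold 0.05; the fit was tested on simulated data. Alternatives used DESeq2 1.42.0 and limma-voom (limma 3.58.1). Ratios were tested with exact permutation (scipy 1.17.1). Exon lengths and positions came from GENCODE on GRCm38. Within each group, no 2 libraries were alike to within counting noise. The members, lists, ratios and tests were chosen with earlier results of these data known. Genes named are the members; of each further list, every called gene and the 2 most abundant; the 3 genes most like Il25, Tslp and Il17rb; and others picked after their values were seen.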

Additional observations from a re-analysis of the deposited data

Results flagged for a closer look

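In 28 groups of 4 libraries checked for a library apart from the other 3, by Dixon's criterion, 3 were marked, and chance marks about 1 in 20. Tslp in Chat-neg replicate 1 stood at 22.2 CPM, on 2 counts, against 96 to 107 CPM in the other Chat-neg libraries. Il13ra1 in Chat-neg replicate 3 stood at 146 CPM, against 154 to 155 CPM. Jak1 in Chat-pos replicate 3 stood at 182 CPM, against 141 to 146 CPM.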

How the results depend on the processing

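Of 21 alternative fits, the log2 differences of Il25, Tslp, Il17rb, Il17ra, Il4ra and Tnfaip3 kept their sign in all, with ranges of 0.61 to 1.57, 0.60 to 1.48, 0.35 to 1.2, -1.24 to -0.50, -1.01 to -0.24 and 0.39 to 1.22. Il25 and Il17rb lost their calls in 2 fits each and Tnfaip3 in 10. Scaled to summed tuft cell markers, 1 member was higher and 2 lower, and of the other pathway genes 1 was higher and 10 lower. Over all 8919 genes tested, that fit called 77 higher and 2060 lower. Il13ra1 (-0.27), Stat6 (-0.23) and Jak1 (-0.38) reversed. Scaled to epithelial markers these were -0.04, -0.01 and -0.14. With that scaling 1 other pathway gene was higher and 4 lower, against 136 higher and 720 lower over all genes. Both scalings lower all genes together by construction. With DESeq2 6 other pathway genes were higher, and with limma-voom 2 were lower; the cause was not tested. Without Chat-pos replicates 2 and 3, 2 members and 1 other pathway gene were higher, with fewer samples. With any 1 library left out, 3 to 4 members were higher and 0 lower, and 2 to 4 other pathway genes higher and 1 lower. The ratio differences ran from -0.17 to 0.26 (Il25 to Tslp, which turned to -0.17 when Chat-neg replicate 4 was left out, to -0.08 for Chat-pos replicate 2 and to -0.03 for Chat-pos replicate 3), 1.66 to 2.00 (Il17rb to Il17ra), 0.59 to 1.70 (Il13ra1 to Il2rg) and 0.12 to 0.75 (Il25 to Il17rb). Total count scaling called 217 genes higher and 330 lower over all genes, against 359 and 238.

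Whether same-numbered libraries share an animal is not given in the sources used here, and they were not treated as pairs; their deviations correlated at 0.065, 0.041, -0.020 and -0.007 for numbers 1 to 4. In the fit with the replicate block, 3 members were higher, without Tnfaip3 (adjusted p = 0.077), 3 other pathway genes were higher and 0 lower, and the paired sign-flip test of the ratio of Il17rb to Il17ra gave an adjusted p = 0.5, where 4 pairs allow no unadjusted p below 0.125.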

Other observations

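Il18, which encodes an epithelial cytokine processed by inflammasomes, spanned a wide range within each gate. It stood at 55.4, 74.2, 132 and 9.33 CPM in Chat-neg replicates 1 to 4 and at 1.21, 6.55, 62.3 and 83.9 CPM in Chat-pos replicates 1 to 4. In each gate at least 1 library was below 10 CPM and at least 2 were above 60 CPM.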
